A study of Mus musculus with 24 samples.

Results

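The genes described here encode the proteins of the mitochondrial ribosome. They were taken as the probe sets with exactly 1 gene symbol, beginning with Mrpl (large subunit, 39S) or Mrps (small subunit, 28S) and a digit, in an annotation of the array from 2016. This gave 156 probe sets of 76 genes, of 18193 genes measured, and each gene was read from the probe set with the highest mean over the 24 arrays. The symbols hold 49 proteins of the large and 27 of the small subunit, with Mrps30 and Mrps18a counted in the large subunit, where they are now placed. Mrps36, which keeps a ribosomal symbol, is now assigned to the oxoglutarate dehydrogenase complex. By family, 45 have a counterpart in the bacterial ribosome and 31 are specific to mitochondria.

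Mitochondrial ribosomes translate the few messages of the mitochondrial genome, which encode core subunits of the respiratory chain and of ATP synthase. Their RNA comes from the mitochondrial genome, while all of their proteins are encoded in the nucleus, made in the cytosol and imported. Neurons depend on respiration for most of their ATP, and the transcription factors NRF1, NRF2 (an ETS-family factor) and YY1 are known regulators of nuclear genes for mitochondrial proteins.

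The study compared RNA from the brains of male mice about 12 weeks old, all taken at the same clock time, 6 h after light onset. Sleep-deprived mice were kept awake by gentle handling for those 6 h, and controls were left undisturbed. The pull-down extracts (6 sleep-deprived, 6 control) are polyadenylated RNA bound to a FLAG-tagged protein and recovered on anti-FLAG beads from brain perfused with formaldehyde. By the labels they come from cells that express Homer1a, an activity-induced short form of a synaptic scaffold protein, so the cells sampled can differ between sleep-deprived and control mice. Transgene, promoter and strain are not stated in the sources used. The 4 supernatants hold the total RNA left by the beads, also from fixed brain, and their source field names Homer1a negative cells. The title and the source field of supernatant 13 disagree on sleep deprivation, so the supernatants formed 1 group. By their titles 3 of the 4 (13, 14 and 15) come from sleep-deprived mice and 1 (16) from a control, an unequal mix that was set against equal-weight means of sleep-deprived and control arrays. Whole-brain extracts (4 sleep-deprived, 4 control) are total RNA of unfixed brain. Selection of polyadenylated RNA and the amplification that the labels name for immunoprecipitated RNA alone cannot be told apart from the cell type in any comparison with pull-down, nor can fixation in those with whole brain. In such bulk extracts fewer cells of a type and less RNA per cell cannot be told apart either.

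Values are log2 intensities, so a difference of 1 is a doubling. They allow a probe set to be compared between arrays but not 1 probe set with another. The median over the 76 genes was 7.21 ± 0.32 in pull-down (SD, n = 12), 7.90 ± 0.06 in whole brain (n = 8) and 7.79 ± 0.12 in supernatant (n = 4), beside medians over all genes of 5.71 ± 0.29, 6.62 ± 0.05 and 6.52 ± 0.05. The medians were lower in pull-down, though the upper quartile of the members was 8.54 ± 0.24 there and 8.57 ± 0.08 in whole brain. Differences between extracts were tested against 0, not against the median difference over all genes, which is given beside that of the members. The control for 18S ribosomal RNA, which has no poly(A) tail, ranged from 6.83 to 11.1 in pull-down and averaged 13.8 in whole brain and 14.3 in supernatant. The Gapdh 3′ probe set exceeded the 5′ one by 4.92 ± 0.78 in pull-down, 2.75 ± 0.16 in whole brain and 2.43 ± 0.13 in supernatant. Control 3 and sleep-deprived 1 of the pull-downs had the most 18S signal, and pull-down control 11 had the lowest correlation with the other pull-downs. Of marker genes, 1 of 10 for neurons (Rbfox3, by 1.45) was called above whole brain in pull-down and 5 were called below. Lower were also 5 of 7 for astrocytes (Gfap was 1.69 higher), 5 of 6 measured for oligodendrocytes, 7 of 7 for microglia, 7 of 7 for endothelium and 2 of 2 measured for blood. These calls are on the values as deposited, where 12.9% of all genes were called higher and 68.8% lower. The median level of the microglial markers was 4.78 in pull-down and 6.61 in whole brain, and that of the endothelial markers 4.72 and 7.36. Their part in the differences below was not tested.

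Compared with whole brain, pull-down RNA held less of most mitochondrial ribosomal protein transcripts as the values were deposited, and more of a minority. At an adjusted p under 0.05 (limma, Benjamini-Hochberg over 45037 probe sets), 16 of the 76 were higher in pull-down and 49 were lower, and the median difference was -0.70. Of all genes, 12.9% were higher and 68.8% lower, with a median of -0.64, so the count of lower members was close to that background. Against supernatant 19 were higher and 41 lower, with a median of -0.53, beside 17.4% and 58.7% of all genes and a median of -0.66. Both comparisons use the same pull-down arrays. Against both references together, 14 were higher (11.9% of all genes) and 41 lower (56.7% of all genes). All 12 pull-down arrays lay above all 8 whole-brain arrays for 8 members (5.69% of all genes), and below them for 26 (20% of all genes). Without the 3 pull-down arrays that stood apart, 16 were higher and 48 lower than whole brain (median -0.82), and 20 were higher and 42 lower than supernatant (median -0.63).

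**Figure D1:**
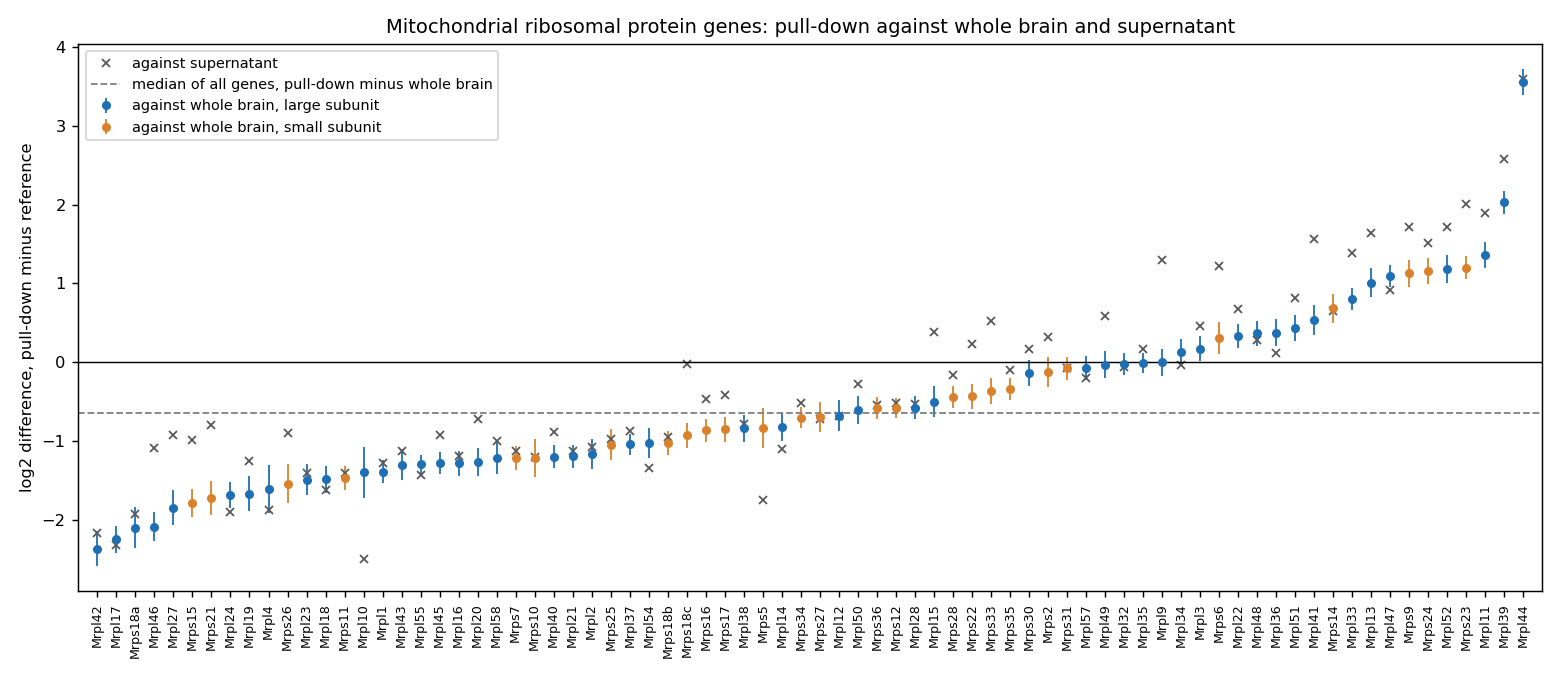
Log2 difference of pull-down from whole brain for the 76 genes in rising order (points with SE, blue for the large and orange for the small subunit) and from supernatant (crosses); the dashed line is the median of all genes. The range runs from -2.37 for Mrpl42 to 3.56 for Mrpl44, with 49 members called lower and 16 called higher than whole brain.

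The calls depended on the scaling of the arrays. Quantile normalization of all 24 arrays gave 31 members higher than whole brain (40.8%) and 21 lower (27.6%), with a median of 0.15. Of all genes, 43.5% were then higher and 17.8% lower, with a median of 0.23. Subtracting each array's median gave 39 higher (51.3%) and 9 lower (11.8%), with a median of 0.46, beside 63.5% and 10.4% of all genes and a median of 0.51. The higher share of the called members was 24.6% as deposited, 59.6% after quantile normalization and 81.2% after subtraction of the medians. Both scalings raise pull-down against whole brain for most genes, so they could turn the lower calls. Subtracting medians raises every difference by the same amount, so it could not lower the higher ones. Quantile normalization can lower a difference: Ssbp1, a gene named further below, was 1.36 higher as deposited and 1.06 after it. All 16 members called higher than whole brain stayed so under the 3 scalings. Of those called lower, 9 were lower under all 3 scalings, namely Mrpl17, Mrpl19, Mrpl24, Mrpl27, Mrpl42, Mrpl46, Mrps11, Mrps15 and Mrps18a. Against both references, 4 were lower under all 3 scalings (Mrpl17, Mrpl24, Mrpl42 and Mrps18a). The shares of all genes that kept a higher or lower call under the 3 scalings were not counted.

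**Figure D2:**
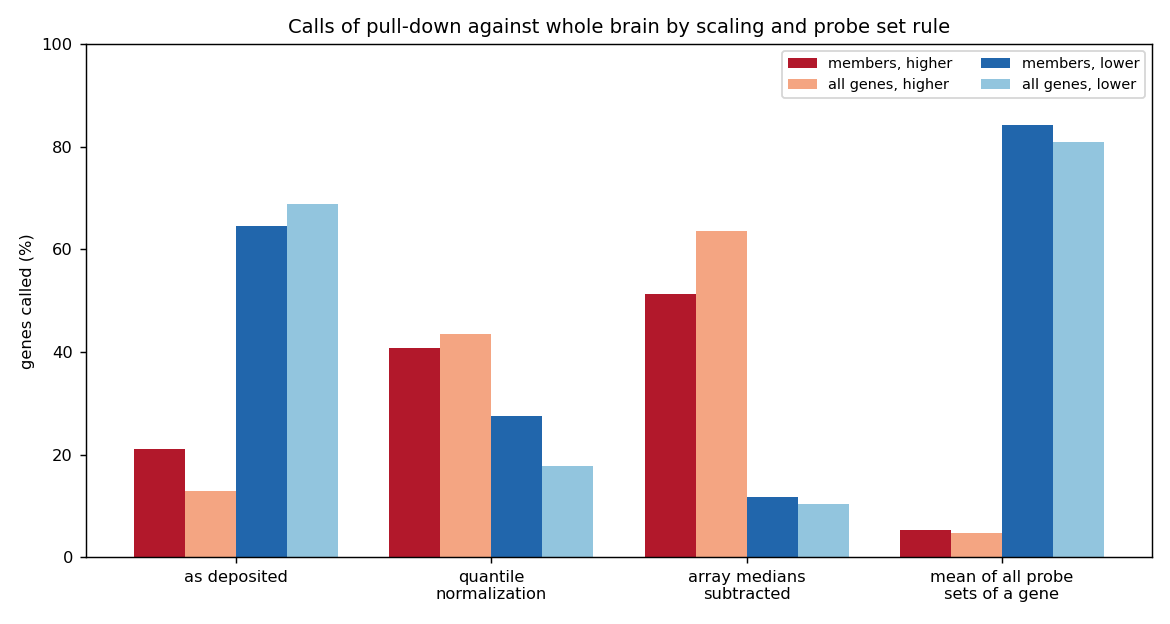
Share of genes (%) called higher (red) or lower (blue) in pull-down against whole brain, for the 76 members (dark) and all 18193 genes (pale), with the values as deposited, after quantile normalization, after subtraction of array medians, and with the mean of all probe sets of a gene. Members follow all genes from mostly lower (49 of 76) to mostly higher (39 of 76) when array medians are subtracted.

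Mrpl44, a large-subunit protein with a fold related to ribonuclease III and no bacterial counterpart in the ribosome, had the largest difference of the 76. Its probe set read 11.51, 12.08, 12.53, 12.55, 12.30 and 12.62 in pull-down after sleep deprivation, and 11.78, 12.50, 12.10, 12.65, 12.49 and 12.47 in pull-down controls. The whole-brain arrays read from 8.53 through a median of 8.67 to 9.27, and the supernatants 8.70, 9.23, 8.57 and 8.32. On this probe set no pull-down array overlapped any other array, though other probe sets of the gene were called lower than whole brain. The difference from whole brain was 3.56 ± 0.16 (SE; adjusted p = 2.43e-15, limma), or 11.8-fold, and that from supernatant was 3.59 ± 0.21 (adjusted p = 3.84e-13).

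Mrpl39, also specific to the mitochondrial large subunit, came next. It ranged from 12.76 through a median of 13.12 to 13.28 in the 12 pull-downs and from 10.89 through 10.98 to 11.25 in whole brain. The supernatants read 10.72, 11.15, 10.34 and 9.80, and again the groups did not overlap. Another probe set of Mrpl39 was not called against whole brain. Mrpl39 was 2.03 ± 0.14 above whole brain (adjusted p = 3.31e-12) and 2.57 ± 0.18 above supernatant (adjusted p = 6.2e-12).

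The lowest member was Mrpl42, a mitochondria-specific protein of the large subunit. In pull-down it ranged from 6.16 through a median of 7.52 to 8.96. It read 8.96, 8.06, 7.93, 8.08, 7.31 and 7.08 in pull-down after sleep deprivation, and 8.13, 6.16, 7.29, 7.19, 7.72 and 6.60 in pull-down controls. Whole brain stayed between 9.87 and 10.01 and supernatant between 9.32 and 10.08, all above every pull-down array. Mrpl42 was 2.37 ± 0.22 lower on the log2 scale than whole brain (difference -2.37, adjusted p = 4.3e-10) and -2.17 ± 0.28 from supernatant (adjusted p = 1.49e-07). Mrpl17, the counterpart of bacterial L17 at the exit tunnel side of the large subunit, ranged from 5.24 to 6.66 in pull-down, from 8.07 to 9.16 in whole brain and from 8.18 to 8.54 in supernatant. Its differences were -2.25 ± 0.17 (adjusted p = 1.71e-11) and -2.32 ± 0.22 (adjusted p = 1.07e-09). Both genes stayed lower under all 3 scalings.

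**Figure D3:**
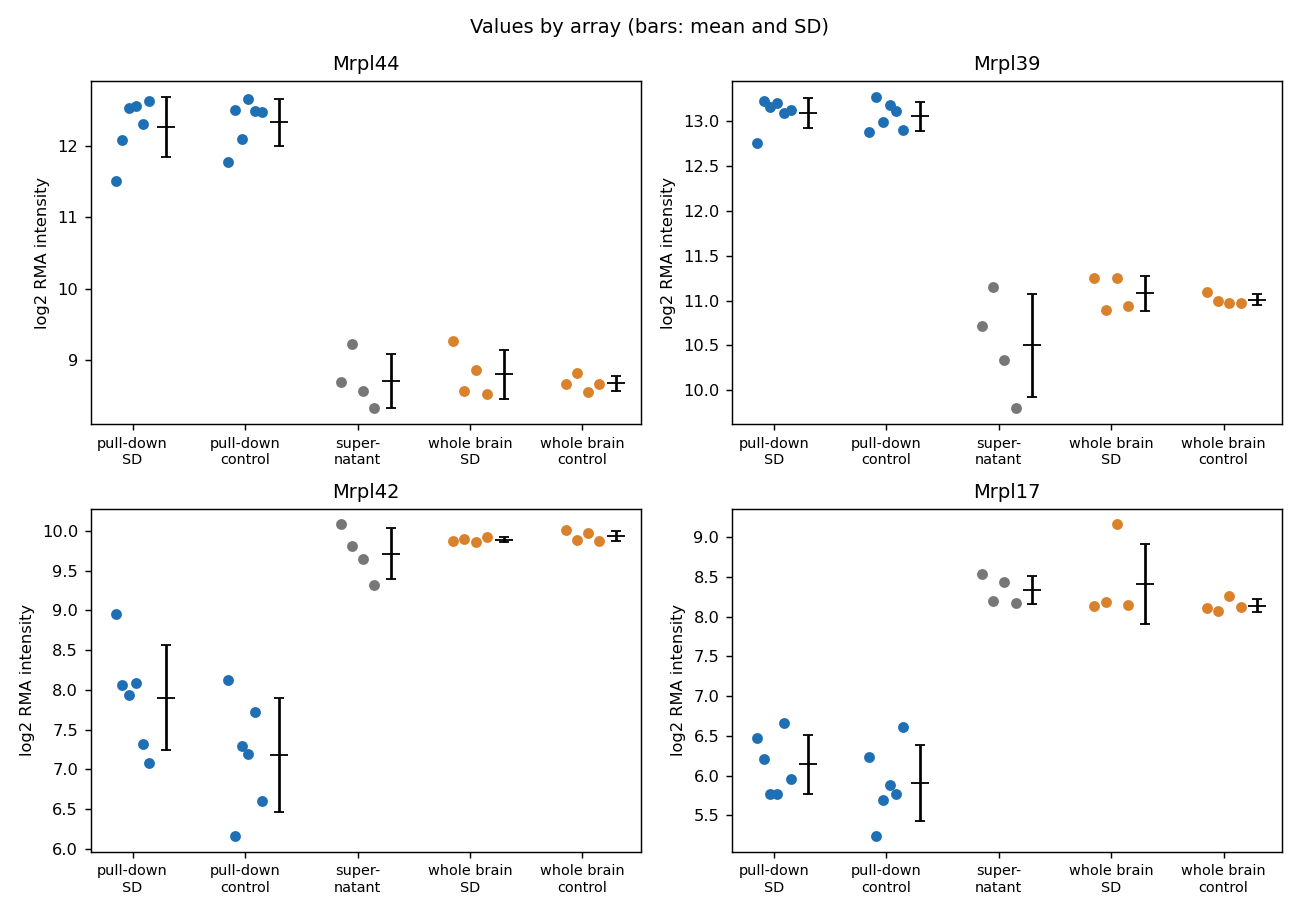
Log2 RMA intensity of Mrpl44, Mrpl39, Mrpl42 and Mrpl17 in each array by group, with mean and SD as bars. For Mrpl44 and Mrpl39 all 12 pull-down arrays lie above the other arrays, and for Mrpl42 and Mrpl17 they all lie below.

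The promoters of these 4 genes are shown because they mark both ends of the range. Each line gives the 250 bases before the transcription start, 5′ to 3′ on the gene's strand (RefSeq, GRCm38.p6), at chr1:79775768-79776017 on the plus strand for Mrpl44, and on the minus strand at chr16:84735245-84735494 for Mrpl39, chr10:95501950-95502199 for Mrpl42 and chr7:105811088-105811337 for Mrpl17. Capitals mark matches to core motifs, on either strand: GCGCATGCG for NRF1, CCGGAAG for ETS factors and AAGATGGCG for YY1.
Mrpl44: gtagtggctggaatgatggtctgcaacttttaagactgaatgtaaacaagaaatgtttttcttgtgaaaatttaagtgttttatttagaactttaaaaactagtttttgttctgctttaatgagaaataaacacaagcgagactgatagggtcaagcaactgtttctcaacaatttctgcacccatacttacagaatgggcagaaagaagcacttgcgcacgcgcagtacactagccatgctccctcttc
Mrpl39: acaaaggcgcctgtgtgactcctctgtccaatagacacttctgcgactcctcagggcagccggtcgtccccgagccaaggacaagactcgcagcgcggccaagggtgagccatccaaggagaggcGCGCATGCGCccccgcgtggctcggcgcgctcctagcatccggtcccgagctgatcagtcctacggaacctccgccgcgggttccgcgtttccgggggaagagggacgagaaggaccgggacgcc
Mrpl42: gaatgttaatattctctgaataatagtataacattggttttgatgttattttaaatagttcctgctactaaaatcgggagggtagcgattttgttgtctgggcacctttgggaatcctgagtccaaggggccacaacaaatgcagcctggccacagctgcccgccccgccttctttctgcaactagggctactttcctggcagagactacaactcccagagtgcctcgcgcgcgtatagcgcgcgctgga
Mrpl17: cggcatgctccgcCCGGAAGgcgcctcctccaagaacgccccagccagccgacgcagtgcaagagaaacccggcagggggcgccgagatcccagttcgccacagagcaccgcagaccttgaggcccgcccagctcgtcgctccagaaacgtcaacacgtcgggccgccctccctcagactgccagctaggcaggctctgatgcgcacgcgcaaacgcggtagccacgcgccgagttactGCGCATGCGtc
Mrpl39, at the high end, holds the NRF1 letters on both strands, in overlapping matches. Mrpl17, at the low end, holds 1 NRF1 match and 1 ETS match. None of the 3 motifs, as exact letters, is in the Mrpl44 and Mrpl42 lines. The YY1 letters are in the Mrpl42 window once it runs on 50 bases past the start. Variants of these letters were not searched for, so a line without capitals can still hold a variant site. In such longer windows, the ETS letters were in 25 of 73 promoters of 67 members (34.2%), against 2355 of 18110 promoters of measured genes. The YY1 letters were in 8 of the 73, against 2.09% of those of measured genes, and the NRF1 letters in 9.59% against 2.69%. Of the promoters of members called higher and lower in pull-down, 6 of 18 and 16 of 44 held the ETS letters, 2 and 5 the YY1 letters, and 2 and 3 the NRF1 letters, and these shares were not tested against each other. A match of letters is not a bound site, and 9 members had no entry in the promoter table.

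By role, each class of subunit proteins held calls in both directions, beside 12.9% of all genes higher and 68.8% lower. Of 29 large-subunit proteins shared with bacteria, 6 were higher and 18 lower than in whole brain, with a median difference of -0.83. Of the 20 large-subunit proteins specific to mitochondria, 6 were higher and 11 lower (median -0.72). In the small subunit, 3 of 16 shared with bacteria were higher and 11 lower (median -0.85), and 1 of 11 specific to mitochondria was higher and 9 lower (median -0.59). All 4 medians rose above 0 when the arrays were quantile-normalized (0.12, 0.33, 0.10 and 0.19) or centred on their medians (0.33, 0.43, 0.31 and 0.57). The median over all genes was then 0.23 and 0.51.

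Among large-subunit proteins shared with bacteria, Mrpl11, at the base of the stalk that recruits translation factors, was 1.36 ± 0.17 higher than whole brain (adjusted p = 5.62e-08), with pull-down arrays from 10.76 to 12.10 and whole brain from 9.99 to 10.73. Mrpl12, the protein of the stalk itself, differed by -0.68 ± 0.20 (adjusted p = 0.00273). Its pull-down arrays ran from 5.14 to 7.07 and overlapped whole brain, at 6.15 to 7.00. Mrpl10, which anchors Mrpl12, differed by -1.40 ± 0.33 from whole brain (adjusted p = 0.000367) and by -2.49 ± 0.41 from supernatant (adjusted p = 6.21e-06). It varied the most of the stalk proteins, from 3.92 to 7.42 over the pull-down arrays. The higher call of Mrpl11 rests on the choice of probe set: 2 of its 4 probe sets were called lower, and the mean of all 4 was at -0.055. The sign of Mrpl12 turned under the other scalings, at 0.38 after quantile normalization and 0.48 with medians subtracted, while that of Mrpl10 stayed below 0 without passing the test (-0.44 and -0.24).

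Mrpl47, the counterpart of bacterial L29, was 1.09 ± 0.14 above whole brain, and the ranges of 8.15 to 9.14 and 7.40 to 7.95 did not overlap. Mrpl27, which in bacteria reaches toward the peptidyl transferase centre, was -1.85 ± 0.22 from whole brain and -0.93 ± 0.28 from supernatant. Mrpl24 was -1.69 ± 0.17 and -1.90 ± 0.21 from the same references. Mrpl27 lay above supernatant under the other scalings (0.21 and 0.25). Of those specific to the mitochondrial large subunit, Mrpl52 was 1.18 ± 0.18 above whole brain and 1.72 ± 0.23 above supernatant. Mrpl46 was -2.09 ± 0.19 and -1.09 ± 0.24 from them. Mrps18a, a large-subunit protein counted among those shared with bacteria, was -2.10 ± 0.26 and -1.93 ± 0.33 from the same references. Each of these differences passed the test as deposited. Mrpl47 and Mrpl52 each had another probe set that was called lower than whole brain.

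In the small subunit, Mrps23, specific to mitochondria, ranged from 8.21 to 9.16 in pull-down, from 7.40 to 7.58 in whole brain and from 6.09 to 7.00 in supernatant, with no overlap. It was 1.2 ± 0.14 above whole brain (adjusted p = 3.48e-08) and 2.01 ± 0.18 above supernatant (adjusted p = 4.3e-10). Mrps24 and Mrps9, the counterparts of bacterial S3 and S9, were 1.16 ± 0.16 and 1.13 ± 0.17 above whole brain. Mrps23, Mrps24 and Mrps9 each had another probe set that was called lower than whole brain. Mrps15 and Mrps21, the counterparts of S15 and S21, were -1.79 ± 0.18 and -1.72 ± 0.21 from it. Mrps12, in the decoding centre, was -0.58 ± 0.13 from whole brain (adjusted p = 0.000153), close to the median of all genes, and at 0.57 once array medians were subtracted.

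The higher calls rested on 1 or a few probe sets of each gene. Of the 16 members called higher than whole brain, 13 had another probe set that was called lower, 2 had a single probe set (Mrpl22 and Mrpl36) and 1, Mrpl39, had another probe set that was not called (-0.13 ± 0.17, adjusted p = 0.480). No member had 2 or more probe sets that were all called higher. Of the 49 called lower, none had another probe set called higher, and 13 of the 19 with several probe sets had all of them lower. Over all members with 2 or more probe sets, 13 of 42 (31.0%) had calls in opposite directions against whole brain, beside 2126 of 9010 genes (23.6%). The count was 16 after quantile normalization (38.1%, beside 29.1% of genes) and 14 with array medians subtracted (33.3%, beside 27.8%). Against supernatant it was 17 members, and between whole brain and supernatant 0. The share over all genes was not counted for these comparisons. In the latter only 1.31% of all genes were called lower by their chosen probe set, which leaves little room for opposed calls.

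Mrpl44 shows the pattern at its widest. Its probe sets with names ending in _a_at and _x_at were 3.56 ± 0.16 and 3.31 ± 0.17 above whole brain. Those ending in _at and _s_at were -0.94 ± 0.15 and -0.86 ± 0.16 from it (adjusted p = 2.01e-06 and 2.59e-05). Mrpl11 had 2 probe sets higher (1.36 and 1.25) and 2 lower (-1.46 and -1.37). Mrps9 had 2 higher (1.13 and 0.67) and 2 lower (-2.52 and -0.94). Mrpl48 was called higher at 0.37 ± 0.16 (adjusted p = 0.0328) by the probe set with the highest mean, and 1 other was at -2.32 ± 0.22 (adjusted p = 7.89e-10). Leaving out any of 7 arrays ended the higher call of Mrpl48, namely numbers 1 and 3 of the sleep-deprived and 3, 9 and 13 of the control pull-downs, whole brain after sleep deprivation 21 and whole-brain control 23, with differences of 0.32 to 0.36. Mrps14 was called higher at 0.68 ± 0.18 (adjusted p = 0.00129), with others at -2.06 and -1.40. Mrpl13, Mrpl33, Mrpl41, Mrpl47, Mrpl51, Mrpl52, Mrps23 and Mrps24 were split in the same way. Names ending in _a_at, _s_at and _x_at mark probe sets that can bind several transcripts. The exons that the probes target were not analysed here.

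**Figure D4:**
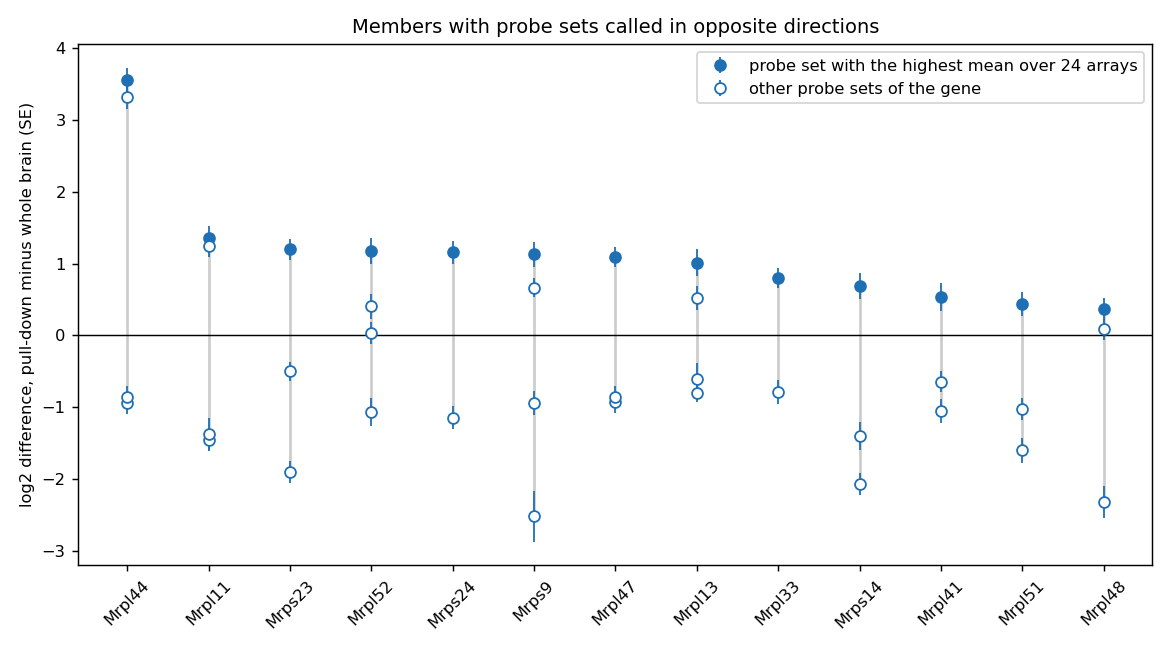
Log2 difference of pull-down from whole brain (with SE) for each probe set of the 13 members called in opposite directions; filled points are the probe set with the highest mean over 24 arrays, open points the others. In every one of these genes the filled point lies above 0 and at least 1 open point lies below, from 3.56 and -0.94 in Mrpl44 to 0.37 and -2.32 in Mrpl48.

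The choice of the brightest probe set uses measured values of the compared groups, and pull-down makes up 12 of the 24 arrays. With the probe set chosen by the supernatant mean, 9 members changed probe set. Then 13 members were higher than whole brain (17.1%) and 55 lower (72.4%), and the median was -0.98. Of all genes, 8.94% were then higher and 75.1% lower (median -0.73). With the mean of all probe sets of a gene, 4 members were higher (5.26%) and 64 lower (84.2%), with a median of -0.85. Of all genes, 4.815% were higher and 80.9% lower by that mean (median -0.71). Members with 1 probe set gave 2 higher and 30 lower of 34 (median -0.98), and those with 2 or more gave 14 higher and 19 lower of 42 (median -0.08). The same split over all genes was not counted. Mrps14 and Mrps9 turned to -2.06 and -2.52 with the supernatant's choice. Mrpl44, Mrpl39, Mrpl42 and Mrpl17 kept their probe set.

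The difference between extracts was alike in control and in sleep-deprived mice, whose arrays are separate. Pull-down controls against whole-brain controls gave 10 members higher and 44 lower (median -0.75), beside 10.5% and 57.9% of all genes. After sleep deprivation 13 were higher and 42 lower (median -0.71), beside 10.9% and 54.1%. The same 10 were higher in both and the same 40 lower in both, and none was called in opposite directions. Of the 76 differences, 69 had the same sign in both. The shares of all genes called alike in both, or with the same sign, were not counted. Mrpl44 was 3.65 higher in controls and 3.46 after sleep deprivation, and Mrpl42 was at -2.75 and -1.99. Across the members the differences had a Pearson correlation of 0.975, beside 0.968 across all genes, which are not independent replicates.

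Whole brain and supernatant are both total RNA, and here the members differed less. As deposited, 13 of the 76 were higher in whole brain (13.2% of all genes) and 0 were lower (1.31% of all genes) by limma. At an unadjusted p under 0.05 there were 22 higher and 2 lower, beside 3722 and 1015 of the 18193 genes. The difference was above 0 for 58 of the 76, with a median of 0.18, beside 52.0% of all genes above 0 and a median of 0.02. With low probe sets left out, the medians were 0.19 for the members and 0.18 for all genes, and 20.3% of the members were higher, beside 24.01% of all genes. The count of higher members fell to 5 without supernatant 16, 7 without supernatant 13 and 8 without whole-brain control 24. It was 4 when array medians were subtracted and 27 with array weights.

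Mrpl9, the counterpart of bacterial L9, had the largest difference between whole brain and supernatant. It read 9.06, 8.60, 8.64 and 8.71 in whole brain after sleep deprivation, 8.54, 8.68, 8.84 and 8.73 in whole-brain controls, and 7.99, 7.37, 7.00 and 7.35 in supernatant, without overlap. The difference was 1.30 ± 0.23 (adjusted p = 0.000276). It was at -0.56 when only probe sets ending in _at and _a_at were read. Mrpl41 was 1.03 higher in whole brain (adjusted p = 0.00943), Mrpl46 1.00 higher and Mrps21 0.93 higher (adjusted p = 0.033). The call of Mrpl41 was lost without supernatant 13 (0.90). That of Mrps21 was lost without any of supernatants 13, 14 and 16, whole brain after sleep deprivation 18, 20 and 21 and whole-brain controls 23 and 24 (0.82 to 0.96).

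Sleep deprivation changed no member past the threshold in either extract. In whole brain (4 against 4), 0 of 76 were called by limma, beside 0.0605% of all genes higher and 0.0055% lower. At an unadjusted p under 0.05, 2 members were higher and 2 lower, beside 471 and 1450 of the 18193 genes. The share of all genes called higher fell to 0.0055% without whole brain after sleep deprivation 19 or 21. The differences lay between -0.44 and 0.29, with a median of -0.01 (all genes -0.05) and SEs of 0.10 to 0.20. Mrps18b, a small-subunit protein of the S18 family, had the lowest p. It read 7.75, 7.57, 7.58 and 7.71 after sleep deprivation and 8.19, 8.16, 7.95 and 8.10 in controls. These ranges did not overlap, but the difference of -0.44 ± 0.11 missed the threshold (adjusted p = 0.221, limma). Mrpl4 was at 0.29 (adjusted p = 0.387), Mrpl28 at 0.28 (adjusted p = 0.397) and Mrpl38 at -0.24 (adjusted p = 0.456).

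In pull-down (6 against 6), 0 members were called by limma and 0 had an unadjusted p under 0.05, beside 0% of all genes called in either direction and 125 higher and 70 lower genes at that unadjusted p. The differences ranged from -0.59 to 0.72, 49 of the 76 were above 0, and the median was 0.09 (all genes -0.03). SEs were larger than in whole brain, from 0.21 to 0.50. Mrpl42 was at 0.72 ± 0.35 and Mrpl18 at 0.56 ± 0.28 (adjusted p = 1 for both). Mrpl12 was at 0.45 and Mrpl21 at 0.40. The members' median was 0.029 without sleep-deprived pull-down 1 and 0.17 without pull-down control 3. Without the 3 pull-down arrays that stood apart it was 0.034 (all genes 0.018) and again 0 were called.

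The effect of sleep deprivation in pull-down minus that in whole brain was called for 0 members by limma, with 0 at an unadjusted p under 0.05, beside 0% of all genes called and 39 higher and 26 lower genes at that unadjusted p. Its median was 0.082 (all genes 0.034), 0.015 without sleep-deprived pull-down 1, and 0.0068 (all genes 0.073) without the 3 pull-down arrays that stood apart. Mrpl12 was at 0.75 ± 0.41, Mrpl42 at 0.77 ± 0.46, Mrps18b at 0.54 ± 0.32 and Mrpl28 at -0.46 ± 0.30 (adjusted p = 1 for each). With a median SE of 0.34, a difference of that size between the extracts was not detectable with this number of arrays.

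**Figure D5:**
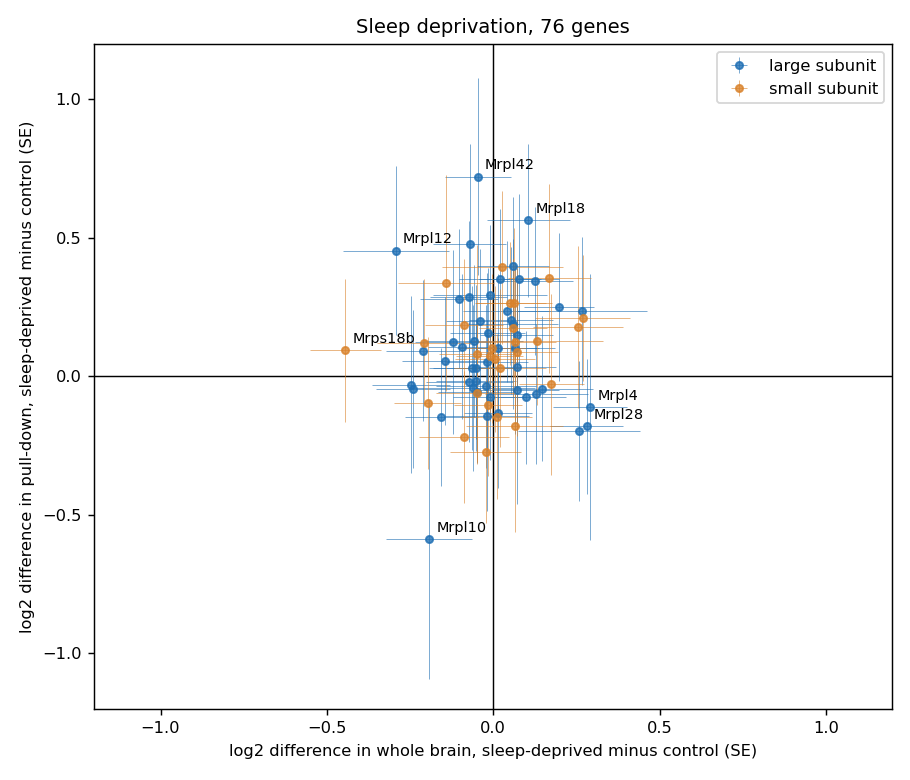
Log2 difference, sleep-deprived minus control, of the 76 genes in whole brain (horizontal, 4 against 4 arrays) and pull-down (vertical, 6 against 6), with SE bars; blue is the large and orange the small subunit. Points lie between -0.44 and 0.29 in whole brain and spread from -0.59 to 0.72 in pull-down, where the SEs are larger.

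The other genes needed to build and run the mitochondrial ribosome were measured alongside. The background over all genes was 12.9% higher and 68.8% lower than whole brain as deposited. It was 43.5% and 17.8% after quantile normalization, and 63.5% and 10.4% with array medians subtracted. Of 4 measured mitochondrial ribosomal proteins with other names, 4 were called below whole brain in pull-down: Ptcd3 (-1.62 ± 0.27), Dap3 (-1.16 ± 0.21), a GTP-binding protein of the small subunit, Gadd45gip1 (-1.11 ± 0.17) and Chchd1 (-0.51 ± 0.13). With medians subtracted Dap3 and Gadd45gip1 were at -0.01 and 0.04. Of 10 measured translation factors, 0 were higher and 9 lower (10 lower at an unadjusted p under 0.05), with a median of 0.15 after quantile normalization (1 higher, 2 lower) and 0.34 with medians subtracted (5 higher, 2 lower). The lowest were Guf1 (-1.90 ± 0.15) and Gfm2 (-1.66 ± 0.18), which acts in ribosome recycling. Both stayed below 0 under the other scalings. Mtfmt, which formylates the initiator methionyl-tRNA, was at -0.96 ± 0.16 and turned to 0.19 with medians subtracted. Of 19 aminoacyl-tRNA synthetases of mitochondria, 6 were higher and 9 lower (median -0.31), which turned to 14 and 3 (0.55) after quantile normalization and 15 and 2 (0.85) with medians subtracted. Yars2 was 1.58 ± 0.14 higher, and Cars2 and Sars2 were at -1.59 and -1.47.

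Of 18 ribosome assembly genes, 4 were higher and 10 lower (median -0.62), beside 12.9% and 68.8% of all genes (median -0.64). Fastkd2, an RNA-binding protein of mitochondrial RNA granules, was 2.55 ± 0.16 higher, and Eral1, a chaperone of the small subunit's ribosomal RNA, was 1.94 ± 0.18 higher. Noa1, a GTPase of ribosome assembly, was at -1.88 ± 0.17. Of 10 genes that copy and transcribe mitochondrial DNA or handle its RNA, 3 were higher and 6 lower. Within this list Lrpprc was at -2.18 ± 0.19 and Slirp, its binding partner, 1.38 ± 0.16 higher. Ssbp1 was 1.36 ± 0.13 higher. Noa1 and Lrpprc stayed below 0 under the other scalings, while the medians of both lists rose above 0 (0.53 and 0.54 for assembly, 0.58 and 0.62 for copying and transcription).

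Cytosolic ribosomal proteins and nuclear-encoded subunits of oxidative phosphorylation were the nearest groups for comparison. The background over all genes against whole brain was 12.9% higher and 68.8% lower as deposited. It was 43.5% and 17.8% after quantile normalization, and 63.5% and 10.4% with array medians subtracted. Of 45 cytosolic ribosomal proteins, 7 were higher and 33 lower in pull-down against whole brain (median -0.52), 7 and 27 after quantile normalization (-0.53) and 25 and 9 with array medians subtracted (0.63). Of 80 oxidative phosphorylation subunits, 20 were higher and 40 lower (median -0.41), 18 and 38 after quantile normalization (-0.20) and 51 and 10 with array medians subtracted (0.75). Quantile normalization thus turned the members' median and left these medians below 0. In pull-down, the median of gene means was 9.77 for cytosolic ribosomal proteins, 10.2 for oxidative phosphorylation subunits and 7.16 for the members. The part of these levels in that contrast was not tested. Against supernatant, 37 of the 80 were higher and 27 lower (median 0.34), where the mitochondrial ribosomal proteins gave 19 and 41 of 76 (median -0.53). Of all genes, 17.4% were higher and 58.7% lower than supernatant. In whole brain against supernatant, 34 of the 80 were higher (median 0.59), beside 13 of the 76 mitochondrial ribosomal proteins (median 0.18) and 13.2% of all genes. The differences between these groups of genes were not tested.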

How the data were processed

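RNA of mouse brain was measured on 24 short-oligonucleotide arrays. The authors deposited log2 intensities, 1 for each probe set on each array. The affy package and RMA, a method that corrects background, normalizes and summarizes probes, are named per the submitters' processing notes. Versions, and whether all extracts were normalized together, are not given in the sources used here. Array medians differed between extracts, so array-wide differences remain in the deposited values.

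Of 45101 probe sets, 64 controls were left out and 45037 tested. The annotation gave 1 gene symbol for 34945, several for 932 and none for 9160. The tests were two-sided, by lmFit and eBayes of limma 3.58.1 (R 4.3.3), with Benjamini-Hochberg adjustment over all 45037 probe sets and a threshold of 0.05. Extracts were compared in 1 fit of 24 arrays and 5 groups, with pull-down and whole brain as equal-weight means of their sleep-deprived and control groups. Sleep deprivation was fitted on the 8 whole-brain and the 12 pull-down arrays, and the difference of its effects on those 20. No low values were filtered out. Fits were tested on simulated data. The number of arrays limits the precision, and p-values weigh each difference against the spread between these samples. No pair of arrays was identical.

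The text names the 8 highest and 8 lowest members against both references, the 4 largest differences between whole brain and supernatant, the 4 lowest unadjusted p in each sleep deprivation comparison, stalk and decoding proteins, members with opposed probe sets and up to 3 genes of each further list. Members and lists were chosen with earlier results of these data known. Promoter windows came from RefSeq (GRCm38.p6), matched by symbol. Alternatives covered scaling, array weights, choice and kind of probe set, low levels and left-out arrays. The choices of probe set by supernatant or whole-brain mean, and leaving out 3 arrays together, were added after seeing the data.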

Additional observations from a re-analysis of the deposited data

Results flagged for a closer look

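Of 165 groups of 4 or 6 arrays checked for the members named above, 11 held an array far from the rest. Chance alone gives about 1 in 20 groups. Pull-down after sleep deprivation 1 had the highest median over the members, 7.99 against 6.94 to 7.30 in the other 5 arrays of its group, and it was also apart for Mrps18a (6.94 against 4.93 to 5.43) and Mrpl39 (12.76 against 13.09 to 13.22). Pull-down control 11 was low for Mrps9 (8.66 against 9.73 to 10.23). Among supernatants, number 13 was low for Mrps9 (7.57 against 8.13 to 8.21) and number 15 high for Mrps18a (7.68 against 7.22 to 7.30). In whole brain after sleep deprivation, array 18 was high for Mrpl17 (9.16 against 8.13 to 8.19), array 20 for Mrpl46 (8.21 against 7.79 to 7.84) and array 19 for Mrps15 (9.71 against 9.39 to 9.43). In whole-brain controls, array 25 was high for Mrpl24 (8.35 against 7.99 to 8.03) and array 23 for Mrpl39 (11.10 against 10.97 to 10.99). The cause was not tested.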

How the results depend on the processing

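With array medians subtracted, the higher and lower counts were 39 and 9 against whole brain, 41 and 5 against supernatant, 31 and 6 in controls and 36 and 4 after sleep deprivation, and 4 were higher in whole brain than in supernatant. Of all genes, 63.5% and 10.4%, 54.4% and 9.15%, 47.75% and 7.55%, and 54.0% and 6.83% were then higher and lower. In whole brain against supernatant 9.32% of all genes were higher. The members' medians turned to 0.46, 0.65, 0.38 and 0.47 (all genes 0.51, 0.51, 0.47 and 0.55). That of sleep deprivation in whole brain turned to 0.078 (all genes 0.030). Quantile normalization gave 31 and 21, 35 and 16, 29 and 18, and 30 and 16, with medians of 0.15, 0.32, 0.088 and 0.16. Of all genes, 43.5% and 17.75%, 37.4% and 17.75%, 31.6% and 14.4%, and 32.55% and 13.4% were then higher and lower. Their medians were 0.23, 0.19, 0.23 and 0.23. In whole brain 2 members were lower than in supernatant (8.10% of all genes). Single genes turned too: with medians subtracted, against supernatant, Mrps15 (0.18), Mrpl46 (0.088), Mrpl27 (0.25), Mrps21 (0.38), Mrpl12 (0.49) and Mrps12 (0.66), and against whole brain Mrps12 (0.57) and Mrpl12 (0.48); after quantile normalization Mrpl12 (0.38 against either reference) and Mrpl27 (0.21 against supernatant). These alternatives differ from the deposited values only in an offset or rank mapping of whole arrays.

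The mean of all probe sets of a gene left 4 members higher than whole brain (4.815% of all genes) and 8 than supernatant (7.965%). It left 2 higher in controls (3.545% of all genes) and 4 after sleep deprivation (3.853%). It gave 8 higher (7.03% of all genes) and 1 lower (0.863%) in whole brain than in supernatant. Against whole brain it turned Mrpl48 (-0.62), Mrpl47 (-0.23), Mrpl41 (-0.39), Mrpl11 (-0.055), Mrpl51 (-0.73), Mrps14 (-0.93), Mrps9 (-0.42) and Mrps23 (-0.40), against supernatant Mrps23 (-0.15), Mrps9 (-0.33) and Mrpl47 (-0.47), and in sleep deprivation of pull-down Mrpl21 (-0.11). The probe set by supernatant mean moved the medians to -0.98 and -0.84 (all genes -0.73 and -0.81). It turned Mrps14 (-2.06), Mrpl48 (-2.32) and Mrps9 (-2.52, and -2.79 against supernatant), with 3 lower in whole brain than in supernatant (1.93% of all genes). That by whole-brain mean turned Mrps14 (-2.06) and Mrpl48 (-2.32), with 1 lower. Probe sets ending in _at and _a_at alone turned Mrps23 (-0.50 and -0.47), Mrpl11 (-1.46 and -0.71), Mrpl9 (-0.56) and, in sleep deprivation of whole brain, Mrpl28 (-0.052). Array weights gave 27 higher and 2 lower in whole brain than in supernatant; the cause was not tested. Leaving out 1 array at a time gave 5 to 12 members higher in whole brain than in supernatant, and no other count of members moved by more than 1.5 times. Of all genes, 0.533% were lower in whole brain than in supernatant without supernatant 15. No paired analysis was possible because the groups share fewer than 2 replicate numbers.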
